A study of Homo sapiens with 51 samples.

Results

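The clustered protocadherins are 53 neighbouring human genes on chromosome 5 that encode cadherin-like cell surface proteins. They were taken as all RefSeq GRCh38 protein-coding genes of the PCDHA, PCDHB and PCDHG families lying in the protocadherin interval of that chromosome, which gives 53 of 20052 protein-coding genes. The alpha cluster holds 15 of them (PCDHA1 to PCDHAC2), the beta cluster 16 (PCDHB1 to PCDHB16) and the gamma cluster 22 (PCDHGA1 to PCDHGC5). Accessible chromatin over them was read from 3 count tables, in which 69 of 100584 regions (undifferentiated cells), 84 of 142087 (BMP4) and 88 of 162317 (SMADi) fell in the interval.

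The assay was ATAC-seq, which reads open chromatin from the places where a transposase could cut the DNA. All 51 libraries were made from H1, an established human embryonic stem cell line, in 3 genotypes that the labels call WT, KO and ΔATG (DATG below). Neither the gene edited, nor the extent of each edit, nor the number of clones per line is named in the labels, so no edit was checked at a target gene. Undifferentiated cells (day 0) gave 2 libraries of each genotype. Cells under BMP4, a treatment the labels call mesoderm, were sampled at days 1, 2, 3, 4 and 5 with 2 libraries for each genotype and day. Cells under SMADi, a neural induction kit with a treatment the labels call neuroectoderm, were analysed here at days 1, 4 and 5. Of the SMADi groups, KO at day 4 and DATG at days 1 and 5 had 1 library each, and the others had 2. The labels do not say whether the 2 replicates of a group were separate cultures, so the p-values reflect only how much these libraries vary, which may be technical.

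Clustered protocadherins are known for giving nerve cells individual surface identities. In the alpha and gamma clusters a series of variable first exons, each with its own promoter, is spliced to a shared set of constant exons, whereas each beta gene is a single exon. Nerve cells use a few of the variable promoters and silence the others by DNA methylation, and an active promoter is joined to distal enhancers by the DNA-binding protein CTCF and the cohesin ring. The C-type genes (PCDHAC1, PCDHAC2, PCDHGC3, PCDHGC4 and PCDHGC5) lie at the ends of the alpha and gamma clusters and are used more uniformly. Most variable promoters carry a short conserved element with a CGCT core.

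Promoters that the results below turn on are shown here, most of them with a longer motif built on this core. Each sequence is from RefSeq GRCh38.p14, on the plus strand and 5′ to 3′, with the searched motif in capitals (GTCGCT or CGCTGT, which overlap by the CGCT core). PCDHA11 is shown because its start separated the DATG line from both others, and PCDHA4 as a start in the same cluster where no comparison was called. PCDHB3, a beta gene, and PCDHGB5 and PCDHGA10, variable gamma genes, lost accessibility under SMADi in both edited lines. PCDHGC3 and PCDHGC4 are C-type genes that did not lose it. For PCDHB5, which fell most among the beta starts, all 250 bases before the start are given, since neither motif occurs in them. The bare CGCT core does occur there, close to the start.
PCDHA11 chr5:140868857-140868942: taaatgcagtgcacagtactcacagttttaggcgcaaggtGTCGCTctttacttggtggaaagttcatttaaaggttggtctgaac
PCDHA4 chr5:140806953-140807038: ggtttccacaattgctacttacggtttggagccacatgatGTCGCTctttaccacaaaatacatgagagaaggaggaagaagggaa
PCDHB3 chr5:141100369-141100454: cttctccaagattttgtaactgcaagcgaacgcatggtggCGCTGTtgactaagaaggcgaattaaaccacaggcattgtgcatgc
PCDHGB5 chr5:141397839-141397924: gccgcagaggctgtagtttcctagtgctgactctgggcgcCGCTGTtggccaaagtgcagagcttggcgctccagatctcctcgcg
PCDHGA10 chr5:141412907-141412986: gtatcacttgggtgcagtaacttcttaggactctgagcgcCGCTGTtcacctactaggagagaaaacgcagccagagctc
PCDHGC3 chr5:141475856-141475941: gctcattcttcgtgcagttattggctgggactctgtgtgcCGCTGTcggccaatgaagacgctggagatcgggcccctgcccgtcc
PCDHGC4 chr5:141484928-141485013: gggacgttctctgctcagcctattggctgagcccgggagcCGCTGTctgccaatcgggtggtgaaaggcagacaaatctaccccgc
PCDHB5 chr5:141134956-141135205: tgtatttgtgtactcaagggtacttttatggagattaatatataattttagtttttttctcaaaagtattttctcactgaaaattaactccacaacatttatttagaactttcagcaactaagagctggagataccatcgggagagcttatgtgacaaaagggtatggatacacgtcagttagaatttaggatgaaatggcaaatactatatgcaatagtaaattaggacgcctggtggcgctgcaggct

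Of the 53 genes, 46 matched a RefSeq promoter at their start, and the motifs were counted on both strands in the 250 bases before it. GTCGCT occurred in 11 of 13 alpha, 2 of 14 beta and 5 of 19 gamma promoters, and in 7.49% of 22198 protein-coding promoters. The longer ATGTCGCT occurred in 9 of 13 alpha promoters and in 0.189% of all. CGCTGT occurred in 7 of 13 alpha, 1 of 14 beta and 16 of 19 gamma promoters and in 10.0% of all. At PCDHA11 the match lay 60 bases before the start and inside the accessible region called there in all 3 tables. The bare CGCT core was not counted, so a promoter without a match can still hold it. A match is a description of the sequence, not a measured binding site.

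Levels are given as CPM, the reads of a region scaled to the same total for every library of a table, over regions that are all 201 bp long. A region counts as being at a gene's start when its centre lies within 500 bp of it. Such a region was found for 25 of the 53 genes in at least 1 of the tables, 6 alpha, 9 beta and 10 gamma, and the other 28 had none. The same 8 beta genes and 8 gamma genes were among the 21 genes found in all 3 tables, along with 5 alpha genes. At day 0 the highest mean levels in the alpha cluster were 30.8 CPM over the start of PCDHAC1 (chr5:140926520-140926720), 14.4 CPM at PCDHAC2 and 12.8 CPM at a second PCDHAC1 region. In the beta cluster PCDHB2 led with 11.8 CPM, followed by PCDHB14 with 7.13 CPM and a region 9994 bp before PCDHB2 with 5.98 CPM. In the gamma cluster the highest was 37.8 CPM at the far end of the cluster (chr5:141512493-141512693, 23512 bp after the start of PCDHGC5), followed by 24.7 CPM at PCDHGC3 and 14.9 CPM at PCDHGB7. The PCDHAC1 region (28.4 CPM under BMP4 and 29.1 CPM under SMADi) and the region at the far end of the gamma cluster (31.2 and 24.2 CPM) led their clusters in the other tables too.

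Libraries held between 4616521 and 7516259 counts at day 0. The range was 4019778 to 13850448 for BMP4, and SMADi libraries had 7086918 to 23252871. The KO library of SMADi day 1 replicate b stood apart: on a score over the regions that separated KO from DATG under BMP4 it was at -1.32, within the DATG range of -1.96 to -1.31 and away from the other KO libraries (1.46 to 1.86). It is kept as labelled, and values without it are given for several results below. Protocadherin genes are close copies of each other, and the counting of reads that match several copies is not given in the sources used here. In these bulk samples, fewer cells with an open region and a less open region in every cell cannot be told apart.

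At day 0 the start of PCDHA11, a variable alpha gene, had much lower accessibility in the DATG line than in the others. The region (chr5:140868832-140869032) gave 4.02 and 5.31 CPM in WT, 5.43 and 7.15 CPM in KO, and 0.798 and 0.619 CPM in DATG. The DATG libraries lay below all 4 others, and both KO libraries lay above both WT libraries. On the log2 scale DATG was lower than WT by -2.62 ± 0.41 (SE; edgeR quasi-likelihood test, Benjamini-Hochberg adjusted p = 1.59e-05), and KO was higher than DATG by 3.08. With the DESeq2 Wald test the adjusted p against WT was 0.138 and the call was lost. KO differed from WT by 0.46 ± 0.27 (adjusted p = 0.682). The next region, centred 550 bp after the same start, gave 4.66 and 5.11 CPM in DATG and 4.82 and 5.49 CPM in WT, and DATG and WT overlapped there.

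A second region was also lowest in DATG. It lies before the alpha cluster (chr5:140726118-140726318) and covers VTRNA1-3, which encodes a vault RNA, a short RNA of the vault particle. It was singled out, like PCDHA11 in comparisons where its change was not among the smallest p-values, after the values had been seen. Levels were 6.69 and 8.79 CPM in WT, 4.97 and 4.98 CPM in KO, and 2.0 and 1.55 CPM in DATG, with no overlap between the genotypes. DATG was lower than WT by -2.05 ± 0.32 (edgeR adjusted p = 9.13e-06), a call lost with the DESeq2 Wald test at an adjusted p of 0.0758. KO was higher than DATG by 1.47 (adjusted p = 0.024), a call lost with DESeq2 and when any 1 of the KO or DATG day 0 libraries was left out.

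These were the only calls at day 0 at an adjusted p of 0.05. DATG against WT gave 2 of 69 regions, both lower, against 0.205% of all regions of the table. KO against DATG gave 2, both higher, against 0.33%. KO against WT gave 0 of 69 with edgeR, against 0.0855%, with 5 at an unadjusted p under 0.05, and 0 with DESeq2. Although no beta region was called, the summed CPM of the beta cluster was already lower in both edited lines at day 0. The lowest WT library had 61.71 CPM, and the highest had 59.39 CPM in KO and 58.54 CPM in DATG. The log2 ratio to WT was -0.127 for KO and -0.214 for DATG, where replicates varied by an SD of 0.0813. The comparisons with WT share the same WT libraries here and below.

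Under BMP4 the start of PCDHA11 was again lowest in DATG. Its region (chr5:140868825-140869025) had a lowest, median and highest level of 2.9, 3.62 and 5.91 CPM over 10 WT libraries, 2.78, 4.29 and 7.21 CPM over 10 KO libraries, and 0.659, 1.18 and 1.86 CPM over 10 DATG libraries. Every DATG library was below every WT and KO library. Averaged over days, DATG was lower than WT by -1.70 ± 0.18 (edgeR adjusted p = 7.32e-13) and KO higher than DATG by 1.92 ± 0.17 (adjusted p = 4.34e-16), while KO against WT was 0.22 ± 0.13 (adjusted p = 0.261). The VTRNA1-3 region (chr5:140726073-140726273) had a median of 6.19 CPM in WT (4.91 to 9.83), 4.26 in KO (3.56 to 5.14) and 1.46 in DATG (0.33 to 2.27). DATG again lay below all other libraries, and KO and WT overlapped only at the edge of their ranges. The differences from WT were -2.42 ± 0.15 for DATG (adjusted p = 3.15e-26) and -0.61 ± 0.11 for KO (adjusted p = 1.02e-05).

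Under SMADi both regions again had their lowest levels in DATG. PCDHA11 (chr5:140868821-140869021) gave 0.784 to 1.36 CPM in 4 DATG libraries against 3.56 to 5.8 CPM in 6 WT libraries, a difference of -2.07 ± 0.24 (edgeR adjusted p = 5.11e-09). KO libraries gave 2.91 to 4.81 CPM, with 2.36 CPM in the library that stood apart. KO against WT was -0.41 ± 0.18 (adjusted p = 0.0731); it was called at -0.47 with scaling by total counts and at -0.60 or -0.62 without KO day 1 replicate a or KO day 4 replicate b, and was -0.26 without day 1 replicate b. KO was higher than DATG by 1.66 ± 0.25 (adjusted p = 0.000239), which was lost without KO day 4 replicate b. This was the only one of 88 regions called between KO and DATG, against 0.0598% of all regions. At VTRNA1-3 (chr5:140726098-140726298) WT gave 6.03 to 10.8 CPM, DATG 0.879 to 1.95 CPM, and KO 6.75 and 1.48 CPM at day 1, 3.05 at day 4, and 3.24 and 2.8 at day 5. The low KO value at day 1 is from the library that stood apart, and it lies within the DATG range. DATG was lower than WT by -2.46 ± 0.26 (adjusted p = 2.55e-09) and KO by -1.16 ± 0.21 (adjusted p = 3.52e-05), or -0.91 without that library. KO against DATG was 1.29 ± 0.29 (adjusted p = 0.0841), and it passed the threshold without that library, at 1.54 (adjusted p = 7.46e-05), and with a replicate block, at 1.44 (adjusted p = 0.0328).

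**Figure D1:**
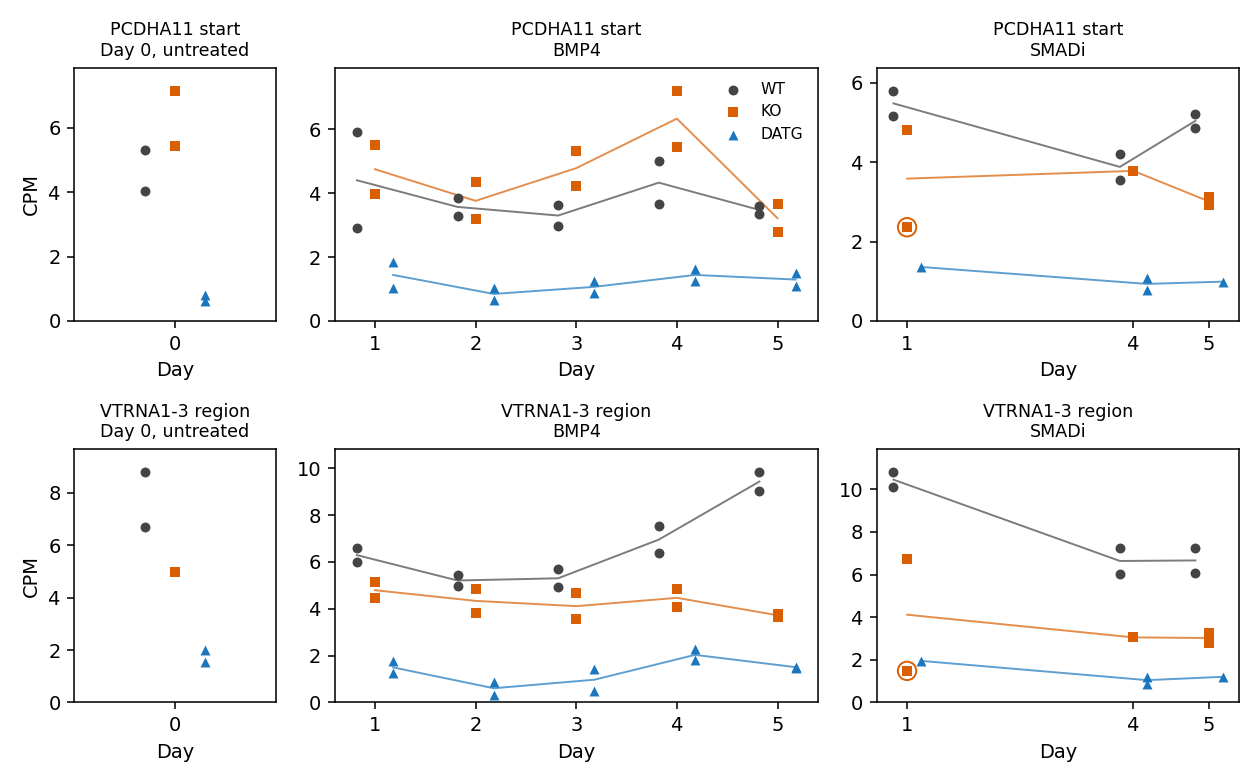
CPM (y axis) in every library by day (x axis) at the start of PCDHA11 and at the region over VTRNA1-3, at day 0, under BMP4 and under SMADi; each point is 1 library, coloured by genotype, lines join the means, and the open ring marks KO day 1 replicate b under SMADi. DATG libraries sit at 0.619 to 1.86 CPM at PCDHA11 in all 3 tables, below the WT libraries.

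Under SMADi the clusters differed between WT and both edited lines at many regions, and the largest changes were losses. KO against WT called 40 of 88 regions (45.5%), 12 higher and 28 lower, in a table where 39.5% of all regions were called. DATG against WT also called 40 of 88 (45.5%), 13 higher and 27 lower, against 28.5% of all regions. With scaling by total counts the DATG split was 8 higher and 29 lower. Without KO day 1 replicate b each comparison called 38 regions, 12 higher and 26 lower in KO and 11 higher and 27 lower in DATG. Both comparisons were means over days 1, 4 and 5, and the median over all regions was -0.004 for KO and -0.0125 for DATG. The many calls across the genome mean that the count of calls alone does not set these clusters apart.

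**Figure D2:**
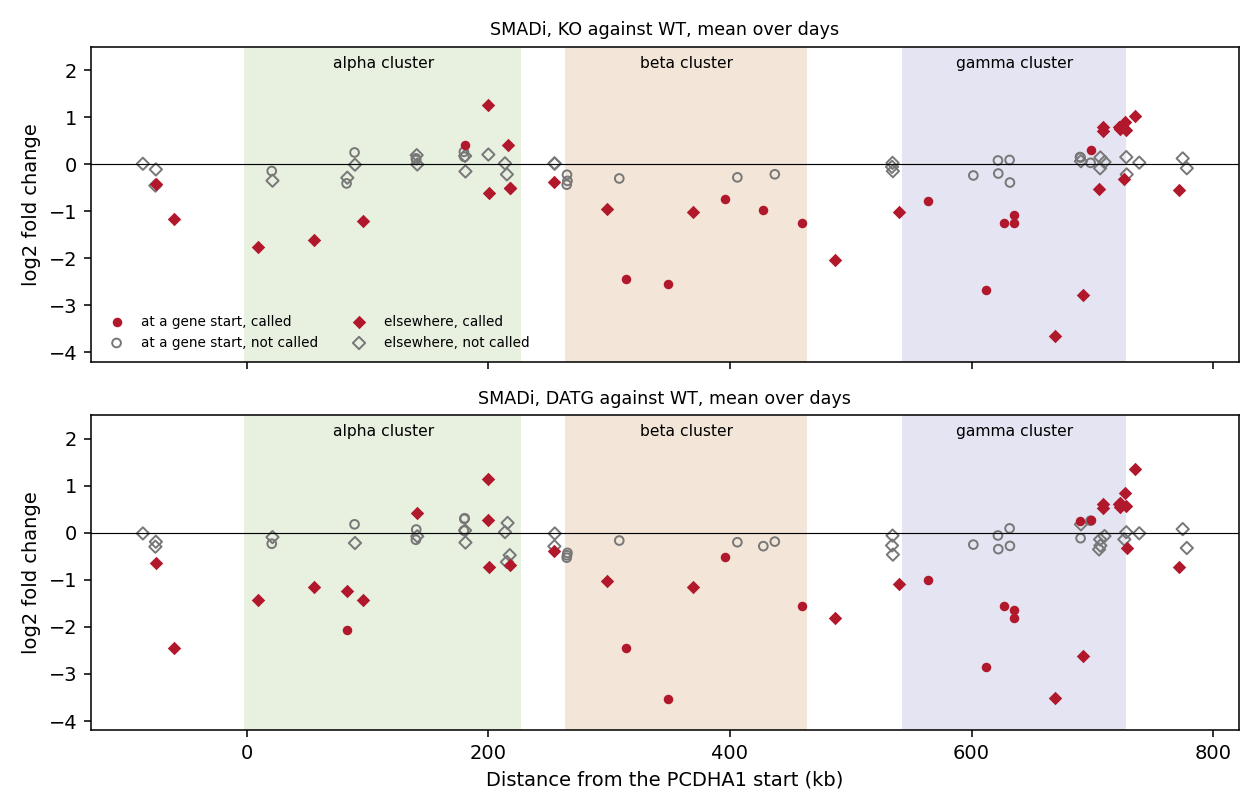
Log2 fold change against WT under SMADi (y axis) for KO and for DATG at each region, by distance in kb from the start of PCDHA1 (x axis), with the alpha, beta and gamma clusters shaded; circles are regions at gene starts, diamonds are other regions, and filled red symbols passed an adjusted p of 0.05. All 13 beta regions lie below 0 in both lines, while the alpha and gamma clusters hold symbols on both sides.

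In the beta cluster all 13 regions had lower estimates in both edited lines. In KO 7 of 13 were called lower and 0 higher, with a median log2 fold change of -0.748, where 21.6% of all regions were called lower. In DATG 6 of 13 were called lower and 0 higher, with a median of -0.513, where 17.4% of all regions were called lower. The estimates of all 13 stayed below 0 in both lines under each of the other normalizations, the other test, the replicate block and without the KO library that stood apart. Without that library the KO median was -0.661. Summed over the cluster, WT gave 68.6 and 70.1 CPM at day 1, 59.8 and 63.8 at day 4, and 50.7 and 56.8 at day 5. KO gave 48.8 and 59.6, then 37.7, then 26.2 and 27.3 CPM, and DATG gave 53.1, then 35.0 and 38.2, then 29.9 CPM. On each day every KO and DATG library lay below both WT libraries. The mean log2 ratio of the totals was -0.691 for KO and -0.661 for DATG, where totals of replicates varied by an SD of 0.108.

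The deepest losses were at PCDHB5 and PCDHB3, single-exon adhesion genes of this cluster. The PCDHB5 start (chr5:141135103-141135303, whose upstream sequence is given above) was at 5.22 and 5.32 CPM in WT at day 1, 3.94 and 4.95 at day 4 and 2.12 and 3.46 at day 5. KO gave 3.54 and 3.17 CPM at day 1, 0.464 at day 4 and 0.194 and 0.171 at day 5. DATG gave 2.89 CPM, 0.338 and 0.181, and 0.043. Both lines were already below WT at day 1 and close to the level of single reads by day 5. The differences from WT were -2.55 ± 0.27 for KO (edgeR adjusted p = 5.5e-10) and -3.54 ± 0.33 for DATG (adjusted p = 4.07e-11). PCDHB3 (chr5:141100362-141100562) fell in the same way, by -2.45 ± 0.32 in KO (adjusted p = 6.68e-08) and -2.44 ± 0.32 in DATG (adjusted p = 1e-07). At day 5 it gave 3.95 and 1.93 CPM in WT, 0.259 and 0.0571 in KO and 0.215 in DATG.

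Other beta starts fell less. PCDHB15 (chr5:141245360-141245560) was at 4.33 to 8.59 CPM in WT, 1.49 to 3.51 CPM in KO and 1.25 to 3.52 CPM in DATG, without overlap, and fell by -1.24 in KO and -1.56 in DATG. PCDHB16 fell by -0.75 in KO and by -0.51 in DATG, the second call being lost with DESeq2 and without any 1 of 5 WT or DATG libraries. PCDHB13 fell by -0.97 in KO, a call lost without KO day 4 replicate b or WT day 5 replicate b. The 2 regions away from starts, 10005 bp before PCDHB2 and 5715 bp after PCDHB6, fell in both lines. The best covered starts, PCDHB2 and PCDHB14, differed from WT by -0.30 and -0.21 in KO, and neither passed the test (adjusted p = 0.0635 and 0.204), nor did PCDHB10 or the 3 regions at PCDHB1.

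**Figure D3:**
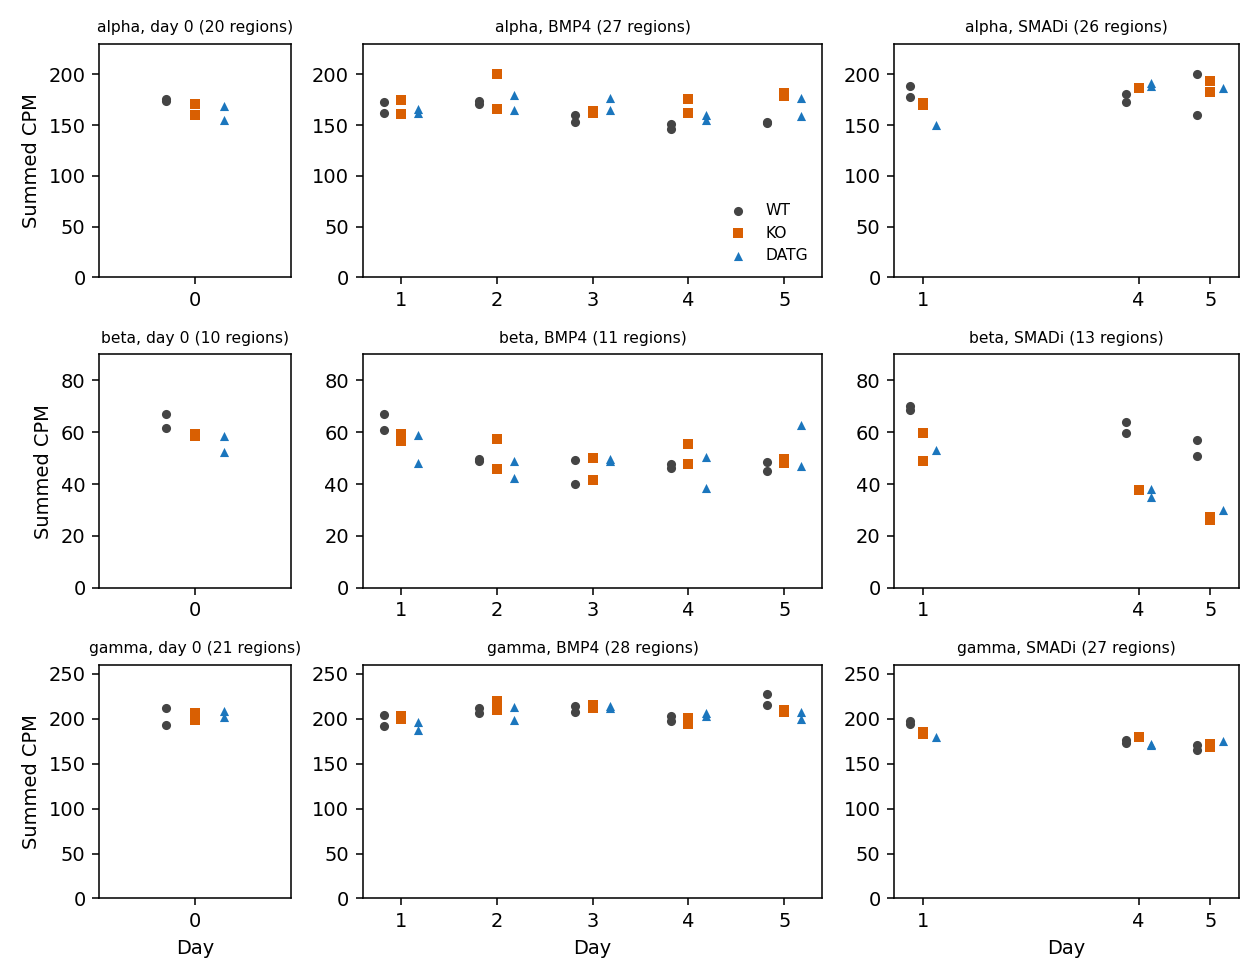
Summed CPM over the regions of the alpha, beta and gamma clusters (y axis, 1 panel for each cluster and table) by day (x axis); each point is 1 library, coloured by genotype. Under SMADi the beta total falls to 26.2 to 29.9 CPM in the edited lines at day 5 and to 50.7 to 56.8 CPM in WT. At day 5 alpha totals overlap and gamma totals lie between 165.0 and 175.6 CPM. Alpha totals of the edited lines lie below WT at day 1 and above it at day 4.

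In the gamma cluster losses and gains stood side by side, and averaged over days the total of all regions stayed close to that of WT. The mean log2 ratio was -0.00995 for KO and -0.0306 for DATG (SD 0.0209). Over gene starts only it was lower, at -0.0977 and -0.114. At day 1 the total was 194.6 and 197.9 CPM in WT, 183.0 and 185.1 in KO and 180.3 in DATG. At day 4 KO lay above WT and DATG below it, and at day 5 KO overlapped WT and DATG lay above it. KO called 6 regions higher and 9 lower of 27, and DATG 7 higher and 7 lower. Among all regions 17.8% were called higher and 21.6% lower in KO, and 11.1% higher and 17.4% lower in DATG. The largest losses were at a pair of regions around PCDHGC3 and at variable genes, and 2 smaller losses in KO lay beyond the PCDHGC5 start. The start of PCDHGB5 (chr5:141397765-141397965) gave 3.12 and 2.76 CPM in WT at day 1 against 0.506 and 0.738 in KO and 1.7 in DATG, and it was at or below 0.265 CPM in every edited library of days 4 and 5. It fell by -2.67 ± 0.42 in KO (adjusted p = 2.86e-06) and -2.85 ± 0.47 in DATG (adjusted p = 8.16e-06). PCDHGA10 fell by -1.25 ± 0.20 and -1.56 ± 0.22, and the main PCDHGA11 region by -1.09 and -1.64, in KO and DATG respectively. PCDHGB1 fell in both lines, by -0.77 in KO. PCDHGB4, PCDHGB6 and PCDHGB7, variable genes among them, were not called in either line.

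Both regions around PCDHGC3 were open at day 1 in every genotype and closed later. The region 20435 bp before the PCDHGC3 start (chr5:141455431-141455631) gave 11.5 and 7.95 CPM in WT at day 1, 2.33 and 3.56 at day 4 and 0.706 and 1.06 at day 5. KO gave 7.93 and 7.38 CPM, then 0.199, then 0 counts in both libraries, and DATG gave 7.99 CPM, then 0.0676 and 0, then 0.043. At day 5 KO was at least 10.4-fold lower than WT (0.95 CPM over the group), taking 3 counts over the KO group, or 0.091 CPM, as the floor. The fitted differences over all days were -3.66 ± 0.46 in KO and -3.51 ± 0.42 in DATG, and they depend on the prior count. The region 2499 bp after the same start (chr5:141478365-141478565) went from 10.5 and 9.19 CPM in WT at day 1 to 1.69 and 1.46 at day 5, and to 0.0647 and 0.114 in KO and 0.129 in DATG. Its differences were -2.79 ± 0.29 (adjusted p = 4.56e-10) and -2.63 ± 0.28 (adjusted p = 1.67e-09). In both regions WT closed too, by -3.26 ± 0.36 and -2.56 ± 0.30 from day 1 to day 5, and the edited lines lay below WT at days 4 and 5.

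**Figure D4:**
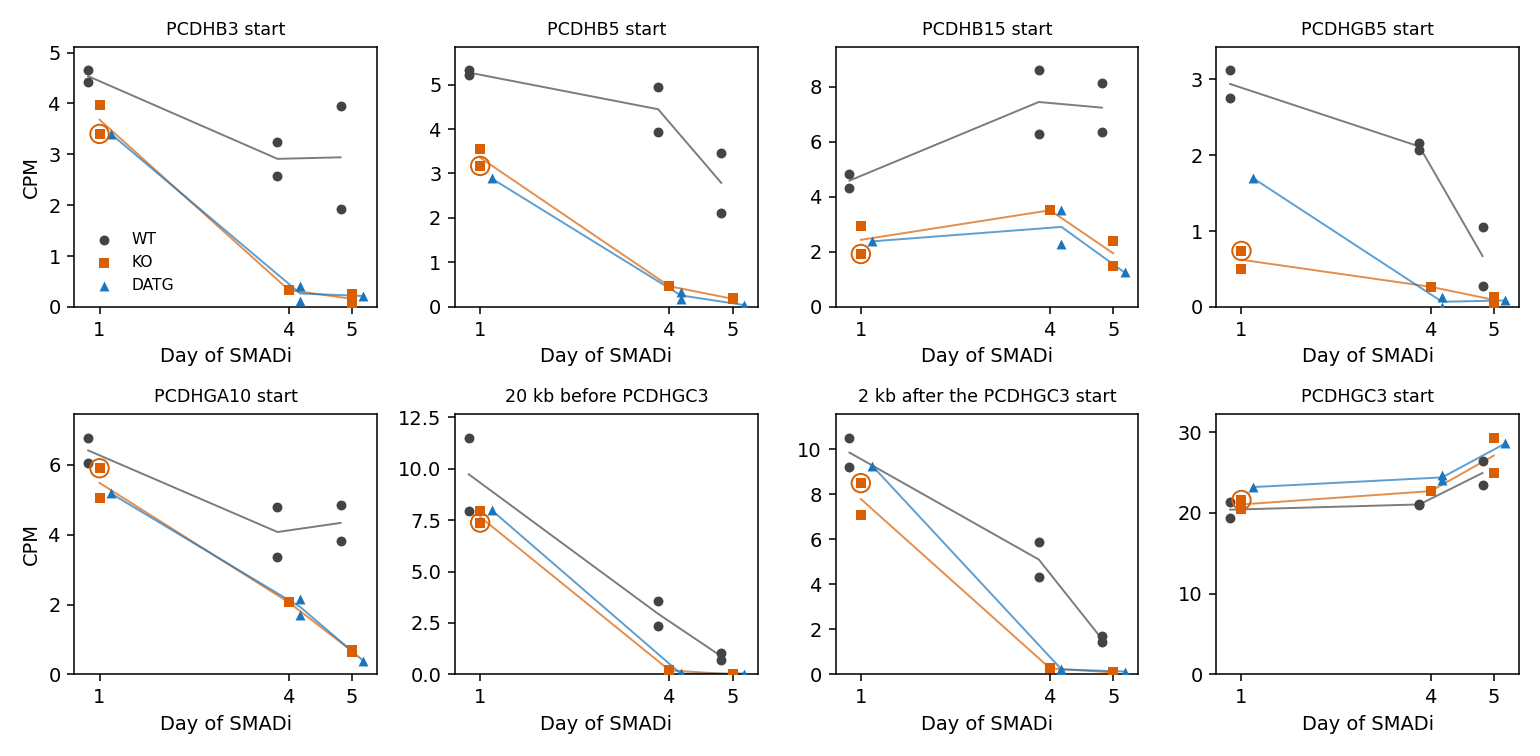
CPM (y axis) by day of SMADi (x axis) at 8 regions of the beta and gamma clusters; points are libraries, lines join the means of each genotype, and the open ring marks KO day 1 replicate b. At PCDHB3, PCDHB5 and both regions around PCDHGC3 the KO and DATG points lie below 0.5 CPM at days 4 and 5, while the PCDHGC3 start stays between 19.4 and 29.3 CPM in all 3 genotypes.

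The C-type starts did not fall. Taking the best covered region at each start, 0 of the 4 C-type genes measured were lower in KO or in DATG. Their estimates ran from 0.0896 to 0.309 in KO and from 0.0711 to 0.296 in DATG. Among all regions 21.6% were called lower in KO and 17.4% in DATG, shares that also apply to the variable genes below. With 4 genes, a count of 0 is near these shares. PCDHGC4 was higher in KO (0.31, adjusted p = 0.0101) and both PCDHGC4 (0.27, adjusted p = 0.0493) and PCDHGC3 (0.26, adjusted p = 0.0276) were higher in DATG. Each of these small calls was lost when single libraries were left out, and the DATG calls were also lost with scaling by total counts. The 19 other genes measured are called variable here, although 9 of them are single-exon beta genes. Of the 19, 9 were lower and 0 higher in KO (median -0.408), and the counts were the same in DATG (median -0.476). Those lower in KO were PCDHB3, PCDHB5, PCDHB13, PCDHB15 and PCDHB16 of the beta cluster and PCDHGA10, PCDHGA11, PCDHGB1 and PCDHGB5 of the gamma cluster. DATG had PCDHA11 in place of PCDHB13. The contrast with the C-type genes thus includes the beta loss given above. The groups also differed in level and base composition: C-type starts had a mean of 11.3 to 29.1 CPM and 57.6 to 63.2% GC in the 250 bases before the start, and variable starts 1.0 to 12.8 CPM and 33.6 to 48.4% GC. The part of level, GC content and cluster in the difference between the groups was not tested.

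In the alpha cluster 3 regions were higher and 6 lower in KO of 26, and 3 higher and 7 lower in DATG. Averaged over days the total was near that of WT (log2 ratio 0.015 and -0.0428, SD 0.103). At day 1 it was 177.2 and 188.2 CPM in WT, 170.1 and 171.8 in KO and 149.9 in DATG. At day 4 the order was the reverse, at 173.1 and 180.4 CPM in WT, 186.7 in KO and 188.3 and 191.6 in DATG. At day 5 the genotypes overlapped. The shares over all regions were 17.8% higher and 21.6% lower in KO, and 11.1% higher and 17.4% lower in DATG. Besides the PCDHA11 start in DATG, given above, several losses lay shortly after the starts of variable genes, and others lay elsewhere in the cluster. The region 587 bp after the PCDHA2 start (chr5:140795339-140795539) fell by -1.75 ± 0.24 in KO (adjusted p = 2.71e-07) and -1.43 ± 0.24 in DATG (adjusted p = 1.4e-05). It gave 3.81 and 2.93 CPM in WT at day 5 against 0.518 and 0.286 in KO and 1.03 in DATG. The region 566 bp after the PCDHA13 start fell by -1.21 and -1.43, and that 603 bp after PCDHA8 by -1.62 and -1.15. The region 574 bp after PCDHA11 fell in DATG by -1.24 (adjusted p = 0.000422), while in KO the difference was -0.29 (adjusted p = 0.335). A region far beyond the PCDHAC2 start, beginning at chr5:141004271, was also lower in both lines at the later days. At day 1 it gave 13.5 and 12.8 CPM in WT, 16.3 and 16.0 in KO and 14.7 in DATG. At day 4 it gave 11.6 and 9.46 CPM in WT, 4.04 in KO, and 4.74 and 4.4 in DATG. Day 5 levels were 9.6 and 8.32 CPM in WT, 4.98 and 6.69 in KO and 3.87 in DATG. PCDHAC1, PCDHA4 and PCDHA12 starts were not called in either line.

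Gains in the edited lines lay towards the ends of the alpha and gamma clusters, away from variable starts. In the alpha cluster 19138 bp after the PCDHAC2 start (chr5:140985514-140985714), all 3 genotypes began at 0.253 to 0.517 CPM at day 1. At day 5 the level was 1.69 and 2.6 CPM in WT, 7.57 and 6.17 in KO and 6.67 in DATG. The mean difference was 1.27 in KO (adjusted p = 0.000345) and 1.14 in DATG (adjusted p = 0.0178), and each call was lost without the single library of KO day 4 or of DATG day 5. Beyond the last gamma start, the region 19745 bp after the PCDHGC5 start (chr5:141508726-141508926) gave 5.08 and 9.52 CPM in WT at day 5 against 18.5 and 18.2 in KO and 16.6 in DATG. It was higher by 0.75 ± 0.14 in KO (adjusted p = 2.49e-05) and 0.54 ± 0.16 in DATG (adjusted p = 0.00719, lost without DATG day 5). Regions 6200 and 20093 bp after the PCDHGC5 start were higher in both lines, by 0.70 and 0.78 in KO and by 0.62 and 0.65 in DATG, and the DATG calls were lost without DATG day 5. The region at the far end of the cluster moved the other way in KO, by -0.32 (adjusted p = 0.00784), a call lost without WT day 4 replicate b.

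Outside the clusters, 9 of 22 flanking regions were called in KO (3 higher, 6 lower) and 10 in DATG (3 higher, 7 lower). Among all regions 39.5% were called in KO and 28.5% in DATG. A region between the beta and gamma clusters (chr5:141273011-141273211) fell by -2.05 in KO and -1.80 in DATG. Inside DIAPH1, a gene for an actin-nucleating formin that adjoins the gamma cluster, a region (chr5:141521442-141521642) rose from 0.828 and 1.17 CPM at day 1 to 3.25 and 2.99 CPM at day 5 in WT. In DATG it reached 10.8 CPM at day 5, and both KO libraries were at a like level. Its mean difference was 1.04 in KO, lost without KO day 4 replicate b, and 1.37 in DATG.

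Whether the change over time differed between lines was tested directly. The day 5 minus day 1 change differed from that of WT in 19 of 88 regions for KO (8 higher, 11 lower; 18.9% of all regions called) and in 14 for DATG (6 higher, 8 lower; 13.9%). These counts, 21.6% and 15.9% of the regions, are near the share over the whole table. With scaling by total counts the KO split was 6 higher and 17 lower. Without KO day 1 replicate b the KO count was 16. PCDHB3, PCDHB5 and PCDHGA10 were among the regions that fell more in both edited lines than in WT. DATG has 1 library at each of these days, which is assumed to vary like the other groups.

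WT itself changed over SMADi at 22 of 88 regions (11 higher, 11 lower), where 40.9% of all regions changed. The clearest gain was 19802 bp after the PCDHAC2 start (chr5:140986178-140986378), from 8.03 and 12.3 CPM at day 1 to 23.6 and 32.9 CPM at day 5, a change of 1.61 ± 0.16 (edgeR adjusted p = 6.91e-11). Neighbouring regions 19138 and 20330 bp after the same start rose by 2.58 and 1.54. Among starts, PCDHGB5 fell by -1.79 and PCDHGA11 by -1.03, the second lost without WT day 1 replicate b, and a PCDHB1 region fell by -1.88. PCDHB15 rose by 0.79, a call lost with DESeq2 and without any 1 of 3 WT libraries. For the PCDHGC4 region 366 bp before the start the change was 0.93.

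Averaged over the days of BMP4, the beta total was close to that of WT in both edited lines. The log2 ratio of the beta total was 0.034 for KO and -0.0132 for DATG (SD 0.163). At day 1, as at day 0, both edited lines lay below WT without overlap. The lowest WT library of day 1 had 61.03 CPM, and the highest had 59.46 CPM in KO and 59.02 CPM in DATG. On the later days KO overlapped WT or lay above it. DATG overlapped WT on those days except at day 2, when it lay just below. With edgeR KO called 0 of 11 beta regions, and 0 were at an unadjusted p under 0.05. The tables were made separately, so the difference between treatments was not tested. Over the interval KO against WT called 17 of 84 regions (6 higher, 11 lower), against 21.5% of all regions, and 10 with DESeq2. DATG against WT called 9 (3 higher, 6 lower), against 9.33%, and 4 with DESeq2, or 5 without WT day 5 replicate b. Both counts, 20.2% and 10.7% of the regions, are near the share over the whole table. KO against DATG called 3 (2 higher, 1 lower), against 1.84%, of which PCDHA11 and VTRNA1-3 were the higher ones.

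At gene starts PCDHA2 was the main change shared by both lines under BMP4. Its region (chr5:140794724-140794924) was lower by -0.75 ± 0.17 in KO (edgeR adjusted p = 0.000376) and -0.87 ± 0.17 in DATG (adjusted p = 0.000166). The region 552 bp after the start was lower by -0.67 and -0.57, the DATG call being lost with DESeq2 and without WT day 5 replicate b. In KO no other start was called. In DATG, besides PCDHA11, PCDHB15 was lower by -0.47 (adjusted p = 0.0183) and a PCDHB1 region higher by 0.44 (adjusted p = 0.0483), and both calls were lost with DESeq2 and without several single libraries. In the alpha cluster 35865 bp after the PCDHAC2 start (chr5:141002241-141002441), WT gave a lowest, median and highest level of 5.62, 7.27 and 9.09 CPM, KO 9.66, 11.7 and 16.5 CPM and DATG 7.09, 10.2 and 13.1 CPM. All KO libraries lay above all WT libraries, and the differences were 0.75 ± 0.09 in KO (adjusted p = 5.67e-11) and 0.54 ± 0.09 in DATG (adjusted p = 1.33e-05).

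WT changed at 24 of 84 regions from day 1 to day 5 of BMP4, 18 higher and 6 lower, where 34.9% of all regions changed. With scaling by total counts, which moved the median of all regions by more than 0.1, the split was 13 and 14, and the count was 14 with DESeq2 or without WT day 1 replicate a and 15 without WT day 5 replicate b. Regions beyond the PCDHGC5 start were among those that opened. The region 18868 bp after the PCDHGC5 start (chr5:141507849-141508049) rose from 1.78 and 1.12 CPM at day 1 to 7.43 and 10.6 CPM at day 5, a change of 2.76 ± 0.27 (adjusted p = 2.34e-15). The region 7136 bp after it (chr5:141496117-141496317) rose from 3.75 and 4.91 to 11.4 and 13.9 CPM, by 1.71 ± 0.20 (adjusted p = 6.34e-12). The region 20426 bp before PCDHGC3, which closed under SMADi, went from 8.06 and 6.02 CPM to 2.91 and 1.86 CPM, by -1.47 ± 0.27. Among starts, PCDHB10 fell by -1.19 ± 0.28 and PCDHGC3 rose by 0.53, the second lost without WT day 5 replicate a.

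In KO the gain at both of these regions beyond the PCDHGC5 start was smaller. The first of these regions reached only 2.65 and 4.43 CPM at day 5 in KO, from 1.99 and 2.65, and 5.51 and 4.73 CPM in DATG. Averaged over days it was lower than WT by -0.59 in KO (adjusted p = 0.001), and the second was lower by -0.71 ± 0.10 (adjusted p = 1.78e-08), with DATG at -0.34 and -0.27 and neither called. The change over days differed from WT in 3 of 84 regions for KO, all lower, against 2.09% of all regions, and in 0 with DESeq2. For DATG it differed in 0 with edgeR and DESeq2, against 0.076%, with 9 at an unadjusted p under 0.05. Leaving out KO day 1 replicate a or b, KO day 5 replicate a, WT day 1 replicate a or WT day 5 replicate b took the KO count to 0 or 1.

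**Figure D5:**
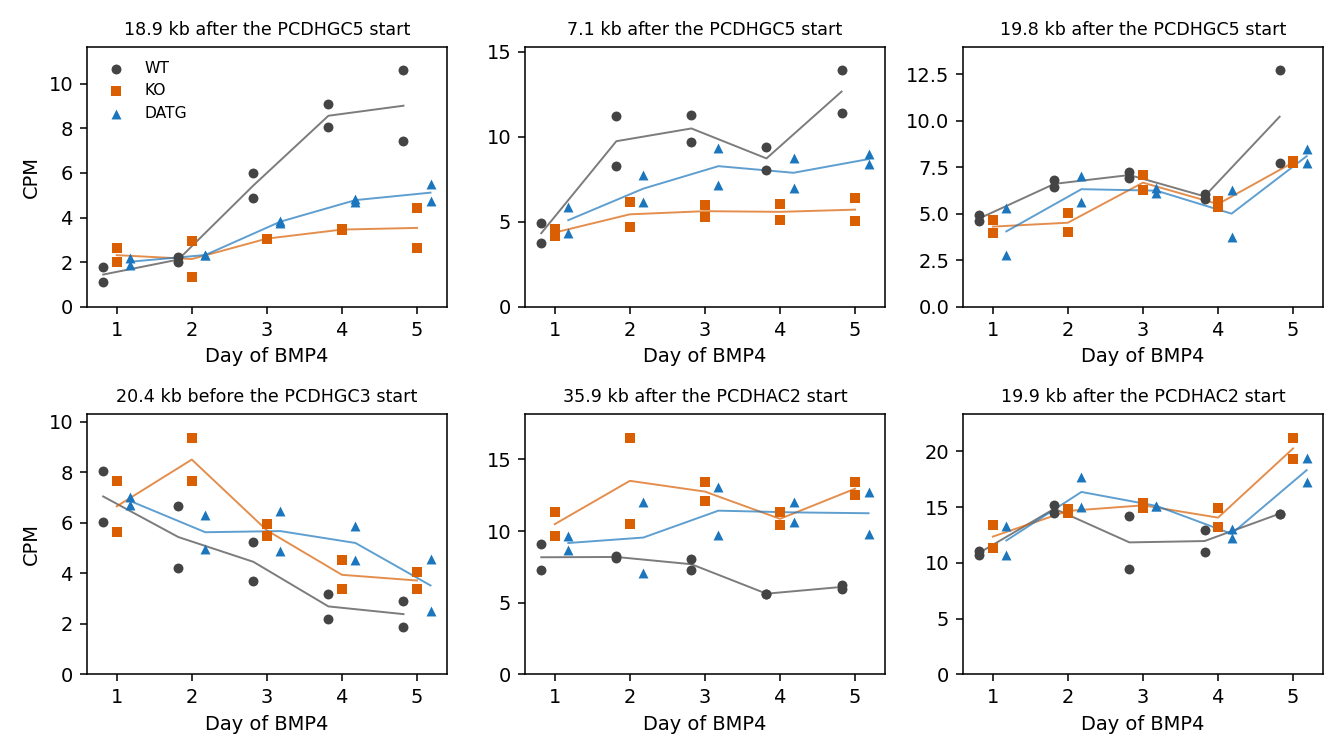
CPM (y axis) by day of BMP4 (x axis) at 6 regions away from gene starts in the alpha and gamma clusters; points are libraries and lines join the means of each genotype. In the region 18868 bp after the PCDHGC5 start WT reaches 7.43 and 10.6 CPM at day 5 and KO 2.65 and 4.43 CPM.

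Genes that act with the clustered protocadherins were read at their own starts, from lists chosen with earlier results of these data known, at each gene's best covered start region. Under SMADi, of 11 genes for CTCF and cohesin, 7 were higher and 0 lower in KO and 4 higher and 0 lower in DATG. Among all regions, 17.8% were called higher in KO and 11.1% in DATG, and the counts of the next lists are to be read against the same shares. These shares cover all regions, while the lists were read at gene starts, and no share over starts alone was taken. The counts therefore do not set the listed genes apart from other gene starts. The medians were 0.306 and 0.206, where the medians over all regions were -0.004 and -0.0125. CTCF itself rose by 0.34 in KO (edgeR adjusted p = 0.000981) and 0.38 in DATG (adjusted p = 0.000608). Of 9 measured genes for DNA methylation and other silencing factors, 5 were higher in KO and 2 in DATG, with 0 lower. DNMT3B, a DNA methyltransferase, rose by 0.63 and 0.47, and UHRF1, which recruits DNA methyltransferase to replicated DNA, by 0.37 and 0.33. SMCHD1, a chromatin protein that silences clustered genes, rose in KO by 0.44 and stood at 0.15 in DATG (adjusted p = 0.411).

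Among 10 measured non-clustered protocadherins, 3 were higher and 0 lower in each line, to be read against those shares. These were PCDH18 (0.54 in KO and 0.66 in DATG), PCDH8 and PCDH9. Of 12 genes for signalling partners, 7 were higher in KO and 3 in DATG, among them FYN, a Src family kinase (0.31 and 0.43). At the starts of 7 protein-coding genes between or beside the clusters (ZMAT2, HARS1, HARS2, WDR55, TAF7, DIAPH1 and HDAC3), edgeR called none in either line. HARS1 and HARS2 share 1 region, and the region over VTRNA1-3, which is not in this list, was called in both lines as given above. Under BMP4 between 0 and 1 gene of any list was called in KO or DATG against WT, and at day 0 none was called in these lists by edgeR.

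Markers of cell state also differed between the lines at day 5 of SMADi. Summed over 5 of 5 neuroectoderm markers, KO gave 175 to 187 CPM and DATG 176 CPM at day 5, above both WT libraries, the lower of which had 132 CPM. At SOX1, an early neural transcription factor, WT gave 15.9 to 16.2 CPM, KO 31.1 to 33.4 and DATG 28.6. At NANOG, a pluripotency factor, WT gave 3.39 to 3.59 CPM, KO 1.26 to 1.49 and DATG 1.63, although the sum of 5 pluripotency markers was 60.5 to 75.6, 75.3 to 83.5 and 84.4 CPM. Both edited lines stood apart from WT at SOX1 and NANOG at day 5, while the pluripotency sums of KO and WT overlapped. The neuroectoderm sums had another order on the earlier days. At day 1 they were 143 to 151 CPM in WT, 133 to 136 in KO and 127 in DATG. At day 4 they overlapped, at 151 to 170 CPM in WT, 155 in KO and 155 to 162 in DATG. Markers of other cell types moved as well at day 5. Summed neuron markers (2 of 2) were 22.2 to 29.5 CPM in WT, 36.2 to 39.5 in KO and 33.2 in DATG, and amnion or surface ectoderm markers (3 of 4) were 79.3 to 95.4, 101 to 110 and 107 CPM. Fibroblast markers (1 of 2) were at 25.9 to 26.4 CPM in WT, 29.8 to 30.3 in KO and 28.2 in DATG. Neural crest markers (2 of 2) were lower in the edited lines, at 31.5 to 33.2 CPM in WT, 20.6 to 25.0 in KO and 27.5 in DATG. Under BMP4 the sum of 5 mesoderm markers was 153 to 161 CPM in WT at day 5, 123 to 131 in KO and 120 to 136 in DATG. The other way round, neuroectoderm markers there summed to 123 to 136 CPM in WT, 170 to 196 in KO and 155 to 160 in DATG, and pluripotency markers to 63.5 to 67.5, 74.7 to 81.8 and 72.5 to 79.4 CPM. No measured marker was at 0. TP63 and COL3A1 had no region in any table, and DCX had none at day 0 and under BMP4. The part of the markers in the protocadherin results was not tested.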

How the data were processed

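The authors deposited 3 tables of raw read counts in 201-bp regions of GRCh38 (day 0, BMP4 and SMADi), and the submitters' processing notes name MACS2 and GRCh38; the aligner and the handling of reads matching several copies: not given in the sources used here. Counts were tested within each table with edgeR 4.0.16 (quasi-likelihood, TMM, filterByExpr; limma 3.58.1, R 4.3.3), with 1 mean per genotype and day and Benjamini-Hochberg adjustment over all regions, at 0.05. DESeq2 1.42.0, other size factors, total counts, no filter, a replicate block and leaving out each library were alternatives. Groups with 1 library are assumed to vary like the others. SE is the log2 fold change divided by the root of F. CPM uses each library's total. On simulated counts for KO against WT in 20000 regions, 200 of them changed, the test recovered 58% (day 0), 98% (BMP4) and 94% (SMADi) of those changed by a log2 of 1, and 4%, 71% and 28% of those changed by 0.5, so smaller differences are often missed at day 0 and under SMADi.

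The genes, lists and tests were chosen with earlier results of these data known. Named were the 3 regions of each cluster with the highest mean CPM, per comparison the 10 called cluster regions with the smallest p and 3 flanking ones, and genes with a region centred within 500 bp of their start. Cluster spans ran from 1 kb before the first start to the last end. Replicate letters did not pair the samples.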

Additional observations from a re-analysis of the deposited data

Results flagged for a closer look

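Each value below is the day 5 minus day 1 change (log2) in an edited line minus that in WT, and each passed the edgeR test of that difference at an adjusted p of 0.05.

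Under BMP4 the change in KO was lower than in WT by -2.1 in the region 18868 bp after the PCDHGC5 start, by -1.27 in that 7136 bp after it and by -1.03 in a region near VTRNA1-1. All 3 were lost with DESeq2.

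Under SMADi the starts that fell more in KO than in WT were PCDHB3 (-3.65), PCDHB5 (-3.15) and PCDHGA10 (-2.34). For DATG the same starts gave -3.17, -4.95 and -3.15. Regions after starts gave -2.22 at PCDHA13 and -3.29 at PCDHA8 in KO, the second lost without KO day 5 replicate b, and -2.92 at PCDHA13 in DATG. The region 20435 bp before PCDHGC3 gave -6.47 in KO and -3.9 in DATG, the second lost with DESeq2, and that 2499 bp after it gave -3.49 and -3.38. Day 5 counts of KO were 0 at the first of these, so its fitted value depends on the prior count. In DATG the region 37895 bp after PCDHAC2 gave -1.32, and a flanking region (chr5:141557778-141557978) gave -1.18, lost with DESeq2 and without any 1 of 5 single libraries.

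Regions that rose more than in WT were those 19745 and 20093 bp after PCDHGC5, at 1.76 and 1.71 in KO and 1.75 and 1.73 in DATG. A region after PCDHAC2 (chr5:141002089-141002289) gave 1.01 in KO, lost without KO day 1 replicate b, and 1.39 in DATG. In and beside DIAPH1, 3 regions gave 2.98, 1.49 and 1.07 in KO, and the first gave 1.94 in DATG, lost with DESeq2 and without WT day 1 replicate b.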

How the results depend on the processing

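Over 75 settings other than leaving out a library, the count of called regions in the interval stayed within 1.5 times its value in 67. With the DESeq2 Wald test it was 0 in place of 2 for DATG against WT and 1 in place of 2 for KO against DATG at day 0. Under BMP4 it was 10 for 17 (KO against WT), 4 for 9 (DATG against WT), 14 for 24 (WT day 5 against day 1) and 0 for 3 (KO change over days), and under SMADi 9 for 14 (DATG change over days). With a replicate block, KO against DATG under SMADi called 2 in place of 1, and the block moved no other count by over 1.5 times. Leaving out 1 library at a time gave 0 to 0, 2 to 2 and 1 to 2 at day 0 for KO against WT, DATG against WT and KO against DATG. Under BMP4 it gave 12 to 18, 5 to 12 and 2 to 4 for the same comparisons, 14 to 24 for WT over days, and 0 to 3 and 0 to 0 for the KO and DATG changes over days. Under SMADi it gave 29 to 42, 28 to 45, 0 to 2, 17 to 24, 15 to 26 and 11 to 22, the last being 22 without WT day 5 replicate b. Day 0 KO against DATG was 1 without any 1 of its 4 libraries, and SMADi KO against DATG was 2 without KO day 1 replicate b and 0 without KO day 4 replicate b. Leaving out the DATG library of SMADi day 1 or day 5 gives no value for the DATG change over days. Log2 ratios of cluster totals taken over gene starts only were -0.0476 for gamma DATG at day 0, 0.0226 and -0.0552 for alpha KO and DATG and 0.0375 for gamma KO under BMP4, and -0.0977 and -0.114 for gamma KO and DATG under SMADi. With TMM scaling the last pair was 0.0466 and 0.0272. Of 116 named results 87 kept their direction and side of the threshold in every setting and 0 reversed. The cause of these differences was not tested. Depth limits regions of low level.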
